A study of Oryza sativa with 4 samples.

Results

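The genes described here are the auxin response genes of rice that carry an IAA, ARF or SAUR symbol, read in coleoptiles that had germinated in air or without oxygen. A gene was taken where its symbol in the RefSeq gene table, or a synonym where the symbol is only a locus number, was IAA, ARF or SAUR followed by a number. This gave 52 genes, 28 Aux/IAA, 23 ARF and 1 SAUR, and 44 of them were among the 17905 genes named on the array. The platform annotation used here lists no probe set for IAA11, IAA29, ARF5, ARF6, ARF8, ARF19, ARF21 and ARF25, which were not analysed here. Each other gene was represented by the probe set with the highest mean of the deposited values over the 4 arrays. IAA4, IAA7, IAA8, IAA16, IAA25, IAA26, ARF13 and ARF14 had a mean under 4 on the log2 scale and were not tested, which left 36 tested genes.

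The coleoptile is the sheath around the shoot of a germinating grass. RNA of Nipponbare coleoptiles, an Oryza sativa cultivar, was read on Affymetrix Rice Genome arrays after 4 days of germination in the dark at 28 °C, with 2 arrays for air (the control) and 2 for an oxygen-free chamber filled with nitrogen and hydrogen. All seeds had been sterilised with bleach. The labels state that the primary leaf was dissected out of the air-grown coleoptiles and that coleoptiles grown in anoxia had none, so the removal of the leaf cannot be told apart from the oxygen supply. Nothing in them says that the arrays of a group are from separate cultures, and p-values then cover no more than the variation among these 4 arrays, part of which may be technical.

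Auxin is the hormone that drives elongation of the coleoptile. It is perceived by a receptor that pairs with an Aux/IAA protein and sends it to degradation. Aux/IAA proteins repress the auxin response factors (ARF), which bind DNA upstream of auxin-responsive genes as activators or repressors, and many Aux/IAA and SAUR genes (small auxin up RNAs) are themselves transcribed in response to auxin.

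Several of these names belong to a pair of loci, and a locus listed under 2 of them is called by the one that no other locus carries in that spelling; IAA5, IAA13, ARF4 and ARF18 are also such loci. IAA20 stands for LOC4340245 here, while LOC4327919 is listed under both IAA20 and IAA4 and is called IAA4. ARF16 stands for LOC9270361, while LOC4327785, listed under ARF1 and ARF16, is called ARF1. The locus listed under ARF12 and ARF8, LOC4337363, is called ARF12, since LOC4330045 carries ARF8 alone. LOC4350610, listed as ARF23 and as arf1, is called ARF23.

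Levels are given as log2(intensity + 1) and changes as anoxic minus aerobic on that scale, on which changes of dim probe sets come out too small. A gene passed the test at an adjusted p under 0.05 (limma, adjusted over all 18826 probe sets tested) and a log2 change of 1 or more in either direction. Median intensities of the arrays ranged from 7.36 to 7.55. Replicate arrays had a Pearson r of 0.973 in air and 0.968 in anoxia across the tested probe sets (not independent of each other), and arrays of different groups 0.687 to 0.698. Probe sets for reporter sequences, which rice does not carry, served as background, and their highest group mean was 4.05.

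Of the 36 tested genes, 17 fell and 3 rose in anoxia. Over all 12290 genes tested, 18% passed the test as lower and 16% as higher, 34% in all, while among these genes it was 47.2% and 8.33%. Their median log2 change was -1.02 (-1.0 with groups under the reporter background set to it), beside 0.03 over all genes tested. Both anoxic arrays lay below both aerobic arrays for 23 of the genes and above them for 7, where the shares over all genes tested were 37.2% and 40.8%. The families differed in their counts: 12 of 20 tested Aux/IAA genes fell and 0 rose, 5 of 15 ARF genes fell and 2 rose, and the single SAUR gene rose. At an unadjusted p under 0.05 in limma, the only tool run, 1 Aux/IAA gene (IAA5) was higher. The difference between the families was not tested. In bulk tissue, fewer cells of a type and less RNA per cell cannot be told apart.

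**Figure D1:**
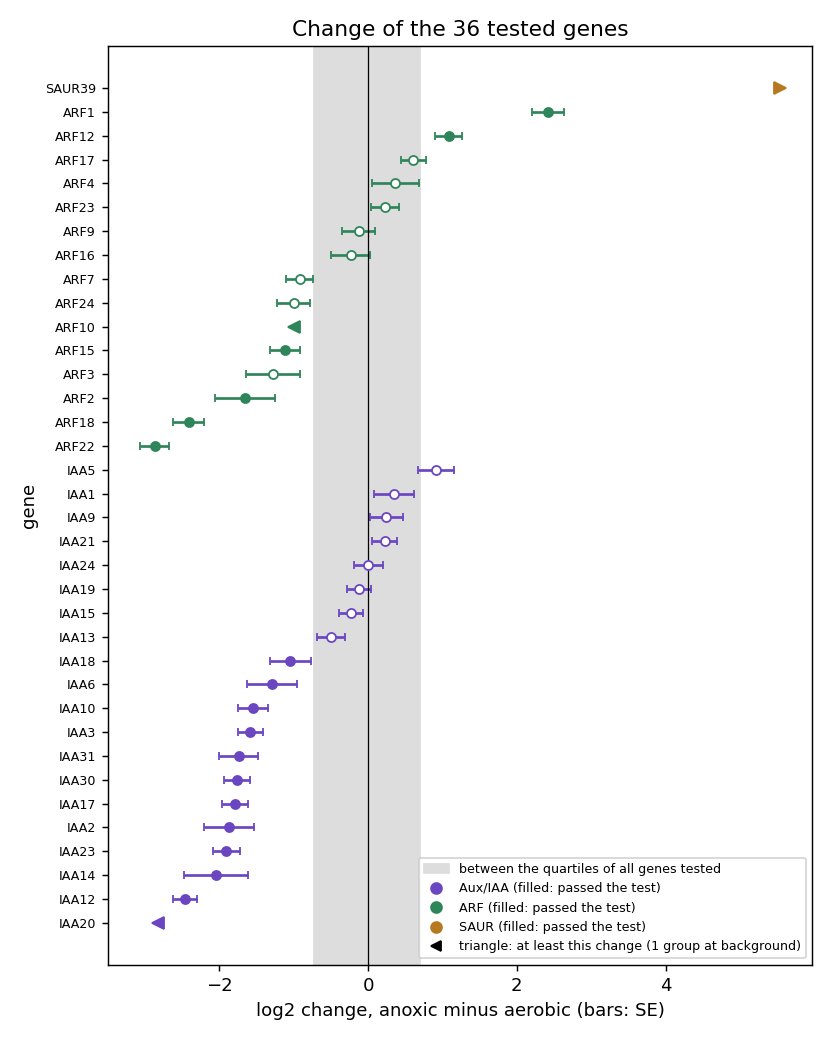
Log2 change (anoxic minus aerobic, horizontal axis) of each of the 36 tested genes (vertical axis), with bars for the standard error, filled circles for genes that passed the test and a grey band for the range between the quartiles of all genes tested. Triangles stand for IAA20, ARF10 and SAUR39, each with 1 group at background, and mark the smallest change this allows. The filled Aux/IAA circles lie between -2.46 and -1.04, the ARF circles run from -2.87 to 2.42, and the SAUR39 triangle, at 46.7-fold, stands farthest to the right.

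The Aux/IAA genes, which encode the repressors, had a median log2 change of -1.42. IAA20 had the largest fall: its level was 7.31 and 6.46 in air and 3.36 and 3.52 in anoxia. Both anoxic arrays lay under the reporter background, so the fall is given as at least 7.11-fold (limma, adjusted p = 0.00411). The anoxic mean, 3.44, lay under the filter, so IAA20 was tested through its level in air. IAA12 read 11.55 and 11.62 in air and 9.09 and 9.15 in anoxia, a change of -2.46 ± 0.16 (SE, adjusted p = 0.00199). The replicates nearly coincided in each group, and the groups stood far apart. In gene order, IAA12 lies beside IAA11, which was not analysed here.

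IAA30 and IAA31 are direct neighbours in the RefSeq gene order and fell by similar amounts. IAA30 read 12.57 and 12.42 in air against 10.70 and 10.77 in anoxia (-1.76 ± 0.17, SE, adjusted p = 0.00405 by limma). IAA31 read 11.67 and 11.65 in air against 9.62 and 10.21 in anoxia (-1.74 ± 0.26, adjusted p = 0.0105). For both, every anoxic array lay below every aerobic array. Whether their probes also read the neighbour's transcript was not tested. The other probe set of IAA31 read 2.72 to 2.74, under the reporter background, and was not tested.

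IAA3 fell from 12.49 and 12.54 to 10.86 and 11.00 (-1.59 ± 0.17, SE). The other probe set of IAA3 read 3.36 to 3.42, under the reporter background, and was not tested. IAA17 fell from 13.06 and 13.07 to 11.16 and 11.39 (-1.79 ± 0.18), on a probe set of the type that can read transcripts of more than 1 gene. The air arrays of both genes were nearly equal, and the adjusted p by limma was 0.00506 and 0.00432. IAA23, which in rice is known to maintain the quiescent centre of the root tip, fell from 7.21 and 7.02 to 5.28 and 5.13 (-1.91 ± 0.18, adjusted p = 0.00384 by limma). Its probe set is of the type that may cross-hybridise, and whether it read other transcripts was not tested. The other tested probe set of IAA23 had an anoxic mean under the reporter background. It passed too (adjusted p = 0.0383 by limma), with a fall of at least 2.12-fold. The remaining probe set read 3.08 to 3.12, under the reporter background, and was not tested.

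The remaining falls were smaller or more spread. IAA2 read 6.54 and 6.55 in air and 5.10 and 4.24 in anoxia (-1.87 ± 0.33, SE). IAA10 read 7.74 and 7.47 against 5.94 and 6.18 (-1.54 ± 0.20), and IAA14 read 8.32 and 7.29 against 5.49 and 6.03 (-2.05 ± 0.43). The aerobic arrays of IAA14 differed more than those of the other falls, yet both stayed above the anoxic arrays. IAA6 and IAA18, named here after their values were seen, changed by -1.29 ± 0.33 and -1.04 ± 0.28, with adjusted p = 0.0413 and 0.045 by limma.

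The other 8 tested Aux/IAA genes did not pass the test. IAA24 was the closest to no change, with 8.11 and 7.89 in air and 8.13 and 7.87 in anoxia (0.00 ± 0.20, SE, adjusted p = 0.995 by limma). IAA19 read 5.69 and 5.68 in air and 5.61 and 5.51 in anoxia (-0.13 ± 0.16, adjusted p = 0.58). IAA13, known in rice for its part in lateral root formation, read 13.51 and 13.77 in air and 13.12 and 13.15 in anoxia. Its difference of -0.50 ± 0.18 did not pass (adjusted p = 0.0977 by limma) and also lay under the fold threshold, though the groups did not overlap. IAA5 had the largest positive value, 0.91 ± 0.24 with an adjusted p of 0.0447, under the fold threshold. The values of IAA1, IAA9, IAA15 and IAA21 lay between -0.24 and 0.35.

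**Figure D2:**
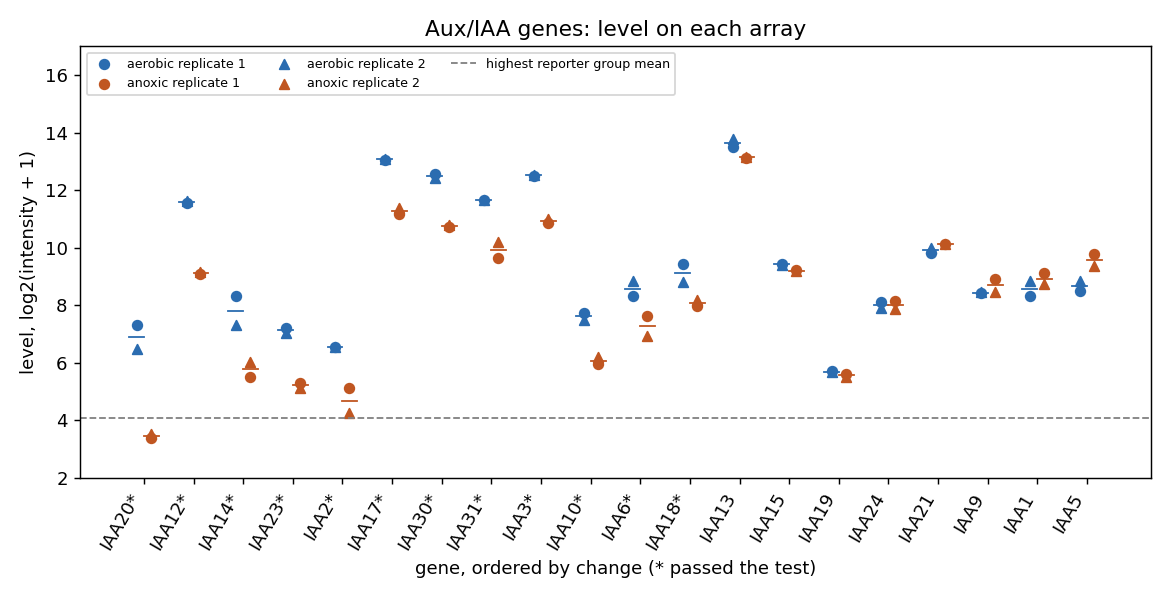
Level (log2(intensity + 1), vertical axis) of the 20 tested Aux/IAA genes (horizontal axis, ordered by change) on each of the 4 arrays, with short lines for group means and a dashed line for the highest reporter group mean of 4.05; levels are not comparable between genes. The anoxic arrays lie below the aerobic arrays for 15 of the genes, above them for 2 and overlap them for 3.

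With 1 array left out, the Aux/IAA median ran from -1.47 to -1.30. In these fits the lone array of a group is assumed to vary like the other group. Over all probe sets tested, too, fewer passed in each of them than in the main fit. IAA12, IAA20, IAA23 and IAA30 passed whichever array was left out, but IAA20 lost its call with no filter on low levels (limma, adjusted p = 0.08). The calls of IAA2, IAA3, IAA10, IAA17 and IAA31 were lost without aerobic replicate 1 or without aerobic replicate 2 (limma, adjusted p from 0.0533 to 0.122). Those of IAA6, IAA14 and IAA18 were lost without any 1 of the 4 arrays (0.0572 to 0.207).

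The ARF genes went both ways, with a median log2 change of -0.92. ARF22 had the largest fall, from 9.52 and 9.79 in air to 6.72 and 6.84 in anoxia (-2.87 ± 0.19, SE, adjusted p = 0.00199 by limma). ARF18 fell from 7.95 and 8.26 to 5.57 and 5.81 (-2.41 ± 0.21, adjusted p = 0.00329). ARF10 was dim throughout, at 4.73 and 5.38 in air and 4.10 and 3.94 in anoxia, and fell at least 2.00-fold against the reporter background (adjusted p = 0.0456). In rice these ARF genes are known as targets of the microRNA miR160, together with ARF8. All 3 tested genes of this class passed as lower, beside 18% over all genes tested, but the class was set after the values were known and nothing is read from its count. The ARF10 call was lost without any 1 of the 4 arrays, with the replicate block (adjusted p = 0.0782 by limma) and with a pseudocount of 16 (log2 change -0.63, 0.0699).

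ARF2 and ARF15 are listed with the synonyms OsETTIN2 and OsETTIN1, after the Arabidopsis gene ETTIN, an ARF that acts in floral organ patterning. ARF2 read 7.24 and 6.29 in air and 4.85 and 5.37 in anoxia (-1.65 ± 0.40, SE, adjusted p = 0.0348 by limma). The other probe set of ARF2 was dim, at 4.65 and 4.07 in air and 3.84 and 3.88 in anoxia, the latter under the reporter background. It changed by -0.49 and did not pass (adjusted p = 0.193 by limma). So near the background it cannot size the fall, which rests on the brighter probe set. ARF15 fell from 8.11 and 7.83 to 6.73 and 6.97 (-1.12 ± 0.20, adjusted p = 0.0173). ARF3, of the same type in rice, read 6.79 and 6.06 against 4.84 and 5.46. Its difference of -1.28 ± 0.36 missed the threshold (adjusted p = 0.0519 by limma). It passed under quantile normalization (limma, adjusted p = 0.0431) and with a crossed replicate block (0.0128). With the replicate block (0.0938) or no filter on low levels (0.354) it did not pass. With 1 array left out, its log2 change ran from -1.64 to -0.91. ARF14, the remaining gene of the type, was under the filter with 3.32 and 3.44 in air and 3.32 and 3.11 in anoxia.

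ARF1 and ARF12 rose. ARF1 read 4.69 and 4.37 in air and 6.81 and 7.08 in anoxia (2.42 ± 0.21, SE, adjusted p = 0.00338 by limma). ARF12, which in rice is known to act in root elongation, read 6.31 and 6.51 in air and 7.57 and 7.43 in anoxia (1.09 ± 0.18, adjusted p = 0.014). In rice, ARF12 and ARF17 are known as activator-type factors and as targets of miR167. ARF17 read 5.82 and 5.65 in air and 6.33 and 6.35 in anoxia. Its difference of 0.61 ± 0.17 did not pass (adjusted p = 0.0508 by limma) and also lay under the fold threshold. The ARF16 locus, known in rice for its part in auxin and phosphate responses, read 8.49 and 7.88 in air and 7.98 and 7.92 in anoxia (-0.23 ± 0.26, adjusted p = 0.52), and its groups overlapped. The rise listed under the synonym ARF16 therefore belongs to LOC4327785, and the rise listed under the synonym ARF8 to LOC4337363.

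ARF23, which was described in growing rice coleoptiles under the name OsARF1, read 8.68 and 8.61 in air and 9.02 and 8.74 in anoxia (0.23 ± 0.19, SE, adjusted p = 0.383 by limma). Its partner ARF24, with which it is known in rice to control an actin-binding protein of cell growth, read 7.44 and 7.84 against 6.75 and 6.52. Its arrays did not overlap between groups and the adjusted p was 0.0287, but the change lay just under the fold threshold. ARF9 changed least, with 7.68 and 7.93 in air and 7.50 and 7.86 in anoxia. ARF7 differed by -0.92 ± 0.18 (adjusted p = 0.021), under the fold threshold, and ARF4 by 0.36 with overlapping groups.

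**Figure D3:**
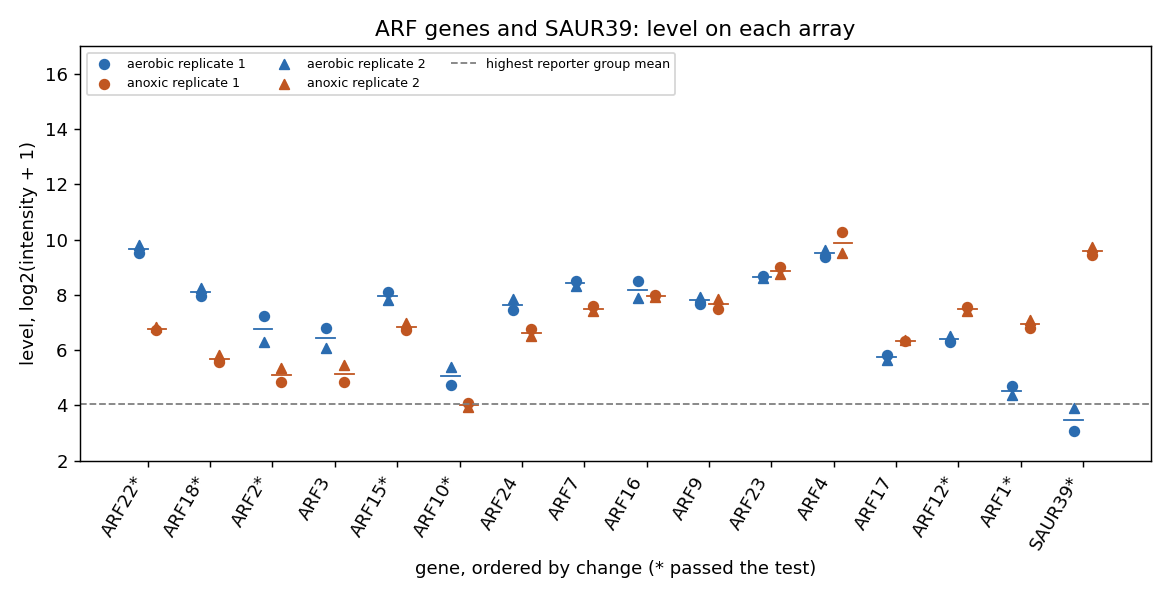
Level (log2(intensity + 1), vertical axis) of the 15 tested ARF genes and SAUR39 (horizontal axis, ordered by change) on each of the 4 arrays, with short lines for group means and a dashed line for the highest reporter group mean of 4.05; levels are not comparable between genes. ARF22 and ARF18 stand lower on both anoxic arrays, ARF1 higher, and SAUR39 moves from under the dashed line to 9.45 and 9.75.

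ARF1, ARF18 and ARF22 passed the test whichever array was left out, with log2 changes from 2.26 to 2.58, -2.57 to -2.26 and -3.00 to -2.74. With no filter on low levels, ARF1 (limma, adjusted p = 0.0516) and ARF18 (0.05 after rounding) lost their calls and ARF22 kept its own (0.0303). The cause was not tested. ARF2, ARF10, ARF12 and ARF15 lost their calls without any 1 of the 4 arrays (limma, adjusted p from 0.0546 to 0.176). With 1 array left out, the ARF median ran from -0.97 to -0.71.

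SAUR39, known in rice as a negative regulator of auxin synthesis and transport, had the largest change of all 36 genes. It read 3.07 and 3.89 in air, both under the reporter background, and 9.45 and 9.75 in anoxia. The mean in air, 3.48, lay under the filter, so SAUR39 was tested through its anoxic level. The fits with 1 array left out used the same filter. The rise was at least 46.7-fold (limma, adjusted p = 0.00146), and the gene passed whichever array was left out. It is the only gene with a numbered SAUR symbol in the table used, so its rise says nothing of the other genes of this large family.

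Other genes of the auxin pathway were taken from 5 lists by symbol, 24 of whose 50 genes were tested. Of these, 3 fell and 3 rose, shares of 12.5% each beside 18% and 16% over all genes tested. Neither tested synthesis gene passed: FIB, an aminotransferase of auxin synthesis, read 6.71 and 6.62 in air and 6.44 and 6.66 in anoxia. In the transport list, PIN3A, an auxin efflux carrier, fell from 9.39 and 8.57 to 6.26 and 6.27 (-2.72 ± 0.32, SE, adjusted p = 0.0062 by limma), a call lost without anoxic replicate 1 (0.0521) or 2 (0.0526). BG1 of the same list, known in rice to promote auxin transport, read 3.73 and 4.12 in air, with a mean under the reporter background, and 4.37 and 5.35 in anoxia, and did not pass (adjusted p = 0.129 by limma).

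In the list of perception and corepression genes, TPR1 and TPR3, corepressors that Aux/IAA proteins recruit, differed by 0.41 and 0.31 and did not pass. RUB1, a ubiquitin-like modifier of the ligase that degrades Aux/IAA proteins, differed by 0.93 ± 0.30 (adjusted p = 0.0711 by limma). The 2 genes of this list that rose, OSK3 and OSK4 (1.83 ± 0.33 and 1.47 ± 0.20), carry symbols of SnRK1-type protein kinases, which act in sugar and energy signalling and entered the list by symbol. The probe sets of OSK3, OSK4 and TPR1, like that of PIN3A, are of the types that can read more than 1 transcript. Without OSK symbols 0 of 3 genes passed by limma, with 1 higher and 0 lower at an unadjusted p under 0.05. OSK3 lost its call without any 1 array (0.0541 to 0.0942) and OSK4 without aerobic replicate 1 (0.0804) or 2 (0.0765).

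In the list of conjugation and inactivation genes, 2 of 12 fell (16.7%) and 1 rose (8.33%), neither share above those over all genes tested. These genes were taken by symbol, and whether each acts on auxin was not tested. ILL3 and ILL5 belong to the hydrolases that free auxin from its conjugates: ILL3 read 13.29 and 13.40 in air and 5.68 and 4.79 in anoxia (-8.11 ± 0.35, SE), and ILL5 fell by 1.99 ± 0.16 on the log2 scale. The other 3 tested ILL genes did not pass. ILL1 was higher by 0.84 (adjusted p = 0.0247 by limma), under the fold threshold. ILL6 differed by -1.24 (0.0881) and ILL7 by -0.10 (0.684). GH3.8, an enzyme that joins auxin to amino acids, read 9.88 and 9.21 in air and 11.32 and 11.00 in anoxia (1.62 ± 0.30, adjusted p = 0.0179 by limma), a call lost without any 1 array (0.0564 to 0.0961). The other 5 tested GH3 genes did not pass, with changes from -2.05 to 0.97. The aerobic arrays of GH3.5, at 5.76 and 7.74, were far apart. DAO, an auxin-oxidising enzyme, read 8.32 and 8.47 in air and 8.83 and 8.06 in anoxia. Of the transcription targets, WOX8 and LBD6 were tested and did not pass.

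**Figure D4:**
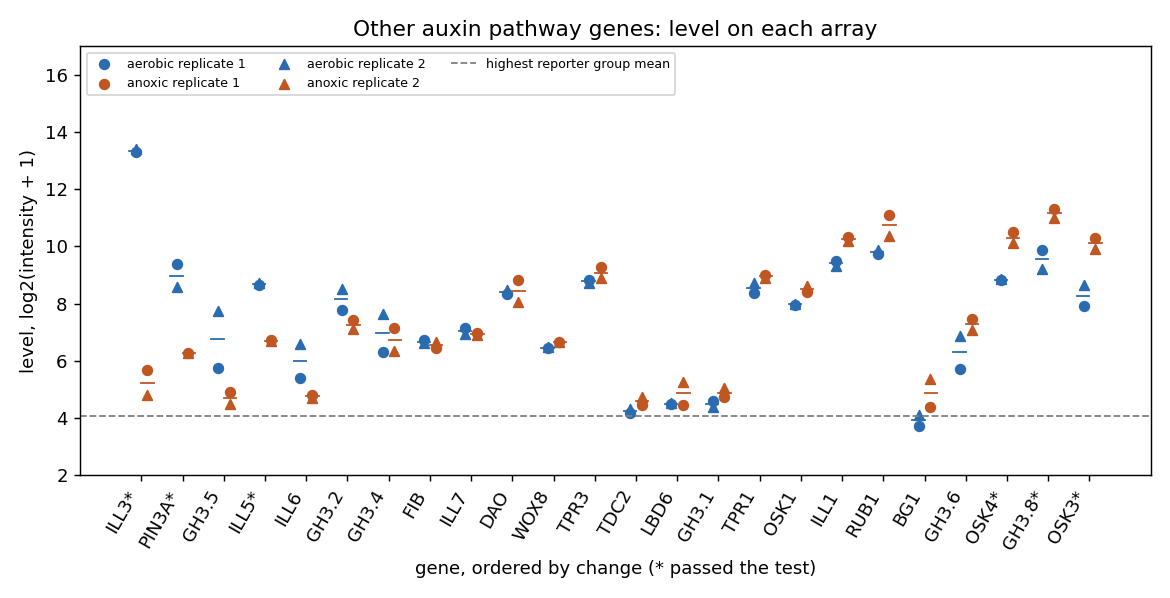
Level (log2(intensity + 1), vertical axis) of the 24 tested genes of auxin synthesis, transport, perception, conjugation and transcription targets (horizontal axis, ordered by change) on each of the 4 arrays, with short lines for group means and a dashed line for the highest reporter group mean of 4.05; levels are not comparable between genes. ILL3, PIN3A and ILL5 are marked as lower in anoxia, and OSK3, GH3.8 and OSK4 as higher. OSK3 and OSK4 carry symbols of SnRK1-type kinases and entered the perception list by symbol.

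Markers of other tissues were read beside these results. Of 7 primary leaf markers with a probe set, 4 were above the reporter background in a group and 0 of the 3 tested passed by limma. The summed intensity of the 7 was 231 to 267 in air and 214 to 275 in anoxia. RBCS alone gave 170.7 and 146.9 of these sums in air and 176.1 and 153.5 in anoxia. PORA was lower on both anoxic arrays (-1.63, adjusted p = 0.131 by limma), and the untested PORB was higher on both. Of 10 endosperm storage markers 8 were at background, GLB1 fell, and the sums were 441 to 474 in air and 211 to 218 in anoxia. GLB1 alone gave 372.4 and 331.2 of these sums in air and 109.9 and 108.3 in anoxia. GLUA-2, the other tested marker of this list, did not pass (-0.06, adjusted p = 0.843 by limma). Of 19 markers of dividing cells, 9 were tested and 3 rose (CYCD4-1, CDKB2-1 and OSH1), where 16% of all genes tested rose. OSH1 was at background in air and passed the filter through its anoxic level. The sums of the 19 markers were 390 to 467 in air and 653 to 886 in anoxia. The 1 root marker with a probe set was at background. The part of these tissues in the auxin results was not tested.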

How the data were processed

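The deposited values were linear intensities (2.25 to 18694), 1 for each probe set on each array, made by the authors with GCRMA per the submitters' processing notes, with version and settings not given in the sources used here. After a pseudocount of 1, log2 values were compared between 2 anoxic and 2 aerobic arrays with limma 3.58.1 in R 4.3.3 (lmFit, eBayes, 2-sided, Benjamini-Hochberg). Residual degrees of freedom were 2, plus 2.34 from eBayes. An exact permutation test of 2 arrays against 2 cannot go below p = 0.333. Of 57381 probe sets, 187 controls were left out, and 18826 with a mean log2 level of at least 4 were tested. Names came from the platform annotation, which can be old (22436 probe sets with 1 gene, 95 with several and left unnamed, 34663 without a gene there), and from the RefSeq gene table of ASM3414082v1. The number of arrays limits the precision.

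The members and lists were chosen with earlier results of these data known. Genes were named by rule: IAA20, ARF16, ARF22, ARF8 and SAUR39; per family up to 10 falls and 10 rises by size and the 2 smallest changes; per other list up to 3 falls and 3 rises. Other members are named as further examples, chosen after their values were seen. A fold change with 1 group not above the brightest reporter group mean is given against that mean, as at least N-fold. Alternatives were another pseudocount, other filters, quantile normalization, an intensity trend, a replicate block, other probe sets and leaving out each array. The fit was also run on data simulated from its own fitted variance model, so that run cannot show how well the model suits these arrays.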

Additional observations from a re-analysis of the deposited data

How the results depend on the processing

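The signs of all 20 called changes held with any 1 array left out, and 8 of the 20 calls held in each of these fits. With 1 array left out, 6 to 11 genes passed as lower, 4 to 9 of them Aux/IAA genes; 2 ARF genes passed as lower and 1 as higher, and the ARF median ran from -0.97 to -0.71. In the other auxin lists, log2 changes in these fits ran from -3.12 to -2.31 for PIN3A and from 1.28 to 1.95 for GH3.8. For ILL3 they ran from -8.56 to -7.66 and for ILL5 from -2.02 to -1.96. The kinases OSK3 and OSK4, in the perception list by symbol alone, ran from 1.45 to 2.21 and from 1.29 to 1.66. The calls of these genes lost in such fits are given above. With no filter, which adds dim probe sets, 13 of the 20 calls were lost, among them IAA20, ARF1 and ARF18; 6 genes passed as lower (5 Aux/IAA genes, IAA3, IAA12, IAA17, IAA23 and IAA30, and 1 ARF gene, ARF22) and 1 as higher (SAUR39; 0 ARF), the medians were -0.37 over all, -0.77 for Aux/IAA and -0.23 for ARF genes, and 0 transport genes passed as lower and 0 perception and 0 conjugation genes as higher; the cause was not tested. Over all probe sets, 1709 of 57194 passed with no filter, beside 6036 of 18826 in the main fit, so calls were lost well beyond these genes. A mean of at least 6, with 29 genes tested, left 3 lower and 1 higher ARF genes (median -0.23). A pseudocount of 16 left 1 higher ARF gene (median -0.63; ARF12 at 0.97 and ARF10 at -0.63 lost their calls), quantile normalization gave 4 lower conjugation genes, and the second brightest probe sets gave an ARF median of -0.49.

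Deviations of same-numbered arrays from their group means correlated with r = -0.142 over probe sets, so the numbers were not taken as pairs. With the replicate block 13 genes passed as lower (10 Aux/IAA, 3 ARF) and 3 as higher, and ARF2, ARF10, IAA6 and IAA18 lost their calls; the crossed replicate block, chosen after seeing the data, gave 18 lower and 3 higher. An intensity trend and the choice of probe set by mean log2 level moved no count by over 1.5 times.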

Other observations

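IAA25, whose mean lay under the filter, was the only untested gene whose aerobic arrays both stood above the reporter background: it read 4.09 and 4.33 in air and 3.15 and 3.18 in anoxia. The other 7 untested genes with a probe set read at most 3.74 on any array.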
